A study of Mus musculus with 12 samples.

Results

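The response to palmitate plus LPS was followed in mouse peritoneal macrophages labelled as PPARγ knockouts, in 6 of the 12 RNA sequencing libraries of the series. The libraries were chosen by their titles: 3 came from labelled knockout macrophages given vehicle and 3 from labelled knockout macrophages given palmitate plus LPS. The cells were recruited to the abdominal cavity with thioglycolate, an irritant, harvested on day 4, plated, and treated the next day for 8 h. The vehicle was BSA in PBS. The stimulus was 250 µM palmitate, a saturated fatty acid, with LPS, a bacterial endotoxin, at 100 ng/ml. The labels give the genotype as LysM-PPARg for these 6 libraries and as LysM-Cre for the other 6, which served as the control genotype for tests of a difference in response. LysM-Cre is active in myeloid cells, which include neutrophils as well as macrophages, and both genotypes carry it. Palmitate and LPS were given only together, so neither agent has a response of its own here. The labels do not say that the 3 libraries of a group came from separate mice or cultures, so p-values measure the spread between these libraries, which may be technical.

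LPS is sensed by TLR4 with its partners CD14 and MD-2. Adaptors of the MyD88 branch lead to NF-κB and to inflammatory cytokines, and adaptors of the TRIF branch lead to IRF3, interferon-β and, through the interferon receptor, to the interferon-stimulated genes. PPARγ is a nuclear receptor for fatty acids that drives lipid uptake and storage genes in macrophages and restrains part of the NF-κB program. Palmitate is taken up, esterified, oxidised or built into ceramides, and together with LPS it is widely used to model the metabolic and inflammatory load on macrophages in obesity.

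The targeted gene went against a simple reading of its label. Pparg read 111, 91.0 and 95.9 CPM (counts scaled to library size with TMM factors) in the labelled knockout vehicle libraries and 62.3, 61.6 and 61.0 CPM in the control vehicle libraries, so the label was not matched by a lower count. After palmitate plus LPS it read 3.59, 5.04 and 4.73 CPM in the labelled knockout and 3.63, 2.86 and 4.14 CPM in the control libraries. All 3 stimulated libraries lay far below all 3 vehicle libraries, and Pparg fell by 4.47 ± 0.14 on the log2 scale (SE; adjusted p = 8.29e-14, edgeR). The deposited count sums every exon of the gene, also any outside the deleted part, so it does not check the deletion. The groups are therefore named by their labels throughout.

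The 6 libraries held 18526840 to 22084487 counts. Macrophage markers were present in all of them, with summed levels of 6926 to 8843 CPM in vehicle and 7520 to 7801 CPM in stimulated libraries, and Cd68 alone averaged 5868 and 4565 CPM. Markers of other cells summed to lower levels. B cell markers (6 tested, 0 rose, 1 fell) summed to 37.0 to 44.5 CPM in vehicle and 16.2 to 22.8 CPM after stimulation. Fibroblast and mesothelial markers (13 tested, 4 rose, 3 fell) summed to 271.0 to 327 and 327 to 552 CPM, and neutrophil markers (7 tested, 3 rose, 3 fell) to 119 to 122 and 155 to 192 CPM. The part of these cells in any response was not tested. In bulk libraries, fewer cells of a type and less RNA per cell cannot be told apart. Vehicle replicate 1 stood apart: its rank correlation with vehicle replicates 2 and 3 was 0.986 and 0.982, against 0.995 between those 2 and 0.994 to 0.996 among the stimulated libraries. The counts over all genes, and the lists whose counts changed most, are therefore also given without it.

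Of 12914 genes tested, 4356 rose (33.7%) and 4600 fell (35.6%) at an adjusted p under 0.05 (edgeR's quasi-likelihood test on all 12 libraries, Benjamini-Hochberg adjustment). With a change of at least 2-fold as well, 1984 rose (15.4%) and 2458 fell (19.0%). The list counts below are to be read against the 33.7% and 35.6% of all genes. At least 8-fold changes were seen for 533 genes that rose and 310 that fell, and at least 32-fold changes for 222 and 35. The genes that rose at least 8-fold together held 0.653% to 0.736% of all counts in the vehicle libraries and 19.1% to 19.6% in the stimulated ones. Those that fell at least 8-fold went from 0.978% to 1.05% of counts down to 0.0662% to 0.0712%. Without vehicle replicate 1, 13148 genes were tested, 4599 rose (35.0%) and 4763 fell (36.2%): 8551 of the calls were kept in the same direction, 405 were lost, 733 were gained and 0 turned. Since a set of very abundant transcripts grew, the scaling matters for small changes: with library totals in place of TMM factors the median log2 change over all genes moved by -0.37, and 2676 genes rose and 6570 fell (28.9% of calls rose, against 48.6% with TMM). Rises smaller or little larger than this shift depend on the scaling.

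**Figure D1:**
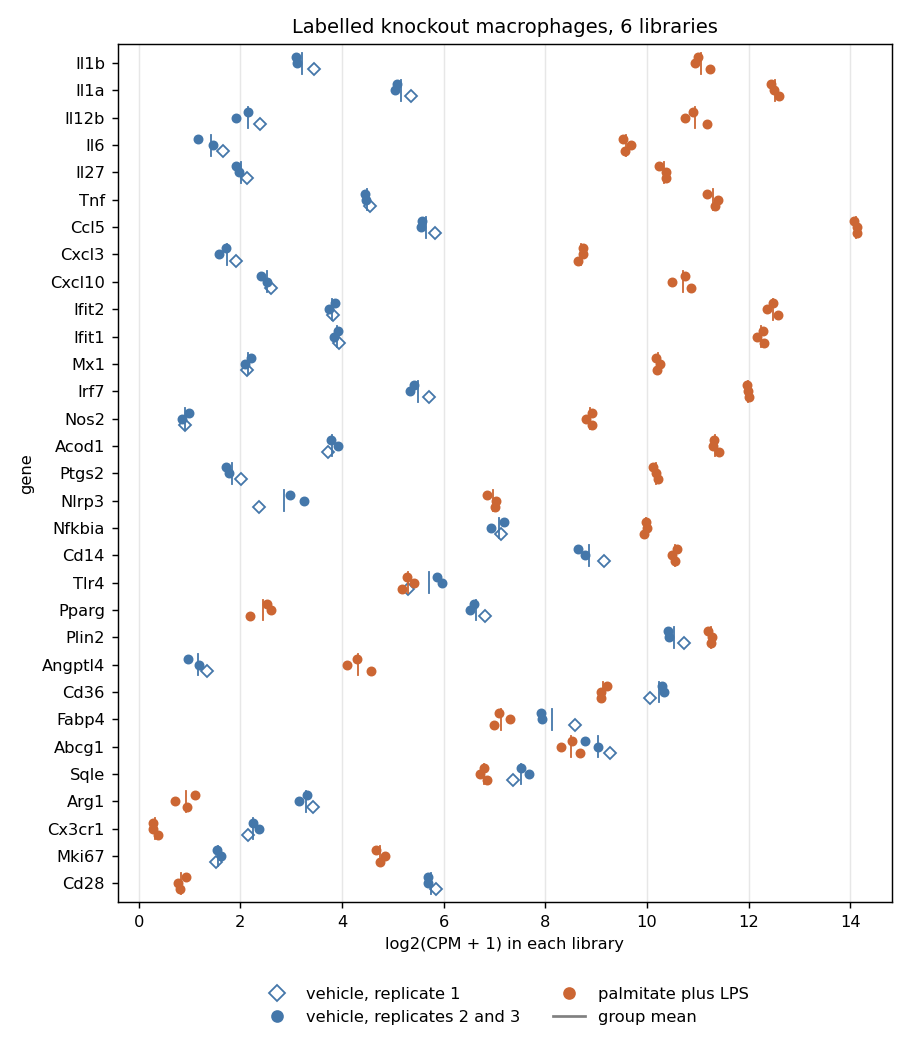
Level of selected genes in each of the 6 labelled knockout libraries, as log2(CPM + 1). Blue symbols are vehicle (the open diamond is vehicle replicate 1), orange points are palmitate plus LPS, and vertical lines are group means. The cytokine, chemokine and interferon-stimulated genes at the top do not overlap between treatments, and Tlr4 is the gene for which vehicle replicate 1 lies inside the stimulated range.

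The IL-1 family rose as a group. Of its 11 tested ligands, antagonists and receptors, 10 rose and 1 fell (median log2 change 2.96, against -0.06 over all genes). Il1b, the NF-κB-driven precursor of the secreted cytokine IL-1β, read 9.96, 7.60 and 7.59 CPM in vehicle and 2419, 1959.6 and 2058 CPM in stimulated libraries, with no overlap. Its log2 change was 8.01 ± 0.16 (adjusted p = 3.79e-16) and 8.14 ± 0.15 without vehicle replicate 1. Il1a, which encodes the alarmin IL-1α, read 39.7, 31.7 and 32.9 and then 6218, 5775 and 5582 CPM, a log2 change of 7.40 ± 0.11 (adjusted p = 3.69e-17). In CPM per kilobase, Il1a stood at 2968 and Il1b at 1125 after stimulation. Il18, another inflammasome substrate of the family, rose less, from 12.6, 7.88 and 8.87 to 109, 101 and 110.0 CPM (3.45 ± 0.15 on the log2 scale, adjusted p = 6.27e-12). The brakes rose too: the receptor antagonist Il1rn by 2.96 ± 0.09 and the IL-18 binding protein Il18bp by 3.31 ± 0.12. Sigirr, an inhibitory receptor of the family, fell from 1.02 to 0.110 CPM.

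Genes of the inflammasome, the complex that matures IL-1β and IL-18 through caspase-1, moved in both directions: of 16 tested, 9 rose, 4 fell and 3 were not called (median 0.45). Over all genes 33.7% rose and 35.6% fell. The sensor Nlrp3 read 4.14, 8.48 and 6.89 CPM in vehicle, lowest in replicate 1, and 128, 129.9 and 115 CPM after stimulation, a log2 change of 4.24 ± 0.20 (4.01 ± 0.16 without vehicle replicate 1). Casp4, which encodes the mouse caspase-11 that senses cytosolic LPS, rose by 3.79 ± 0.09, Casp1 by 2.17 ± 0.11 and the pore protein gene Gsdmd by 1.76 ± 0.09. The adaptor Pycard (ASC) fell by 1.28 ± 0.14, and of the NLRP1 sensors Nlrp1a fell by 2.11 ± 0.22 and Nlrp1b from 1.41 to 0.0923 CPM. Without vehicle replicate 1, 9 rose and 6 fell, Naip5 and Naip6 being the additions. With library totals the list split evenly, 7 against 7.

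Other secreted cytokines and growth factors rose in 22 of 28 cases and fell in 4 (median log2 4.85, or 4.39 with the 1 gene at a zero count set to its bound). Il12b, the p40 subunit shared by IL-12 and IL-23, read 4.19, 2.79 and 3.46 and then 2318, 1712 and 1911 CPM, a log2 change of 9.17 ± 0.18 (adjusted p = 2.66e-16). Il27 read 3.35, 2.95 and 2.76 and then 1334, 1321 and 1204 CPM (8.74 ± 0.12), and Il12a, the p35 subunit, rose by 8.53 ± 0.15. Ebi3, the partner of Il27, rose by only 1.17 ± 0.16. The acute-phase cytokine Il6 read 2.15, 1.75 and 1.24 and 757, 818 and 739 CPM (8.83 ± 0.15), and Tnf 22.4, 21.1 and 20.9 and 2595, 2689 and 2309 CPM (6.88 ± 0.10). All of these separated without overlap.

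Several cytokines had few or no counts in vehicle. Ifnb1, which encodes interferon-β, had 0 counts in all 3 vehicle libraries and 23, 28 and 40 counts in the stimulated ones, at least 12.4-fold higher against a floor of 3 counts per library. Csf2 (GM-CSF) had 0 counts in vehicle and 42, 58 and 27 after stimulation, at least 17.6-fold higher. Csf3 (G-CSF) had 6, 1 and 2 counts and then 201, 183 and 162. Il23a, the p19 subunit of IL-23, had 2, 0 and 1 counts in vehicle and 202, 163 and 185 after stimulation. Il10, the anti-inflammatory cytokine usually induced late by LPS, had 12, 0 and 4 counts in vehicle and 5, 2 and 4 after stimulation, too few to be tested. Growth factors of tissue repair were among the falls: Igf1 fell by 1.72 ± 0.09, Pdgfb by 1.57 ± 0.16 and Pdgfa by 1.19 ± 0.10. Tnfsf13b, which encodes the B cell factor BAFF, fell by 1.81 ± 0.24.

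Chemokines rose in 19 of 22 cases and fell in 2 (median 6.48). Ccl5, which draws T cells and monocytes, went from 55.8, 45.8 and 46.8 to 17932, 18020.1 and 17173 CPM, a log2 change of 8.49 ± 0.12 (adjusted p = 2.5e-17). Ccl3 and Ccl4 rose by 6.40 ± 0.15 and 6.17 ± 0.14, the monocyte attractants Ccl2 and Ccl7 by 7.14 ± 0.18 and 6.90 ± 0.22. Cxcl10, the interferon-inducible ligand of CXCR3, read 5.08, 4.78 and 4.33 and 1874, 1446 and 1722 CPM (8.48 ± 0.20), and the neutrophil attractant Cxcl3 2.78, 1.99 and 2.31 and 397, 425 and 424 CPM (7.47 ± 0.13). Ccl6, abundant in resting thioglycolate macrophages, fell by 1.43 ± 0.14, from 1029 to 381 CPM.

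Receptors for these signals split, with 15 of 31 up, 13 down and 3 not called (median 0.42). With library totals 12 rose and 15 fell. Over all genes 33.7% rose and 35.6% fell. The receptors for TNF and IL-15 rose, Tnfrsf1b by 3.12 ± 0.18 and Il15ra by 5.13 ± 0.11, as did the atypical chemerin receptor Ccrl2, by 3.63 ± 0.10. Of the chemokine receptors, Ccr2 fell by 4.66 ± 0.27, the fractalkine receptor Cx3cr1 by 3.96 ± 0.31, Cxcr4 by 3.48 ± 0.17 and Ccr1 by 0.58 ± 0.10. Ccr7, the lymph node homing receptor, rose by 3.04 ± 0.42 from 0.352 to 3.07 CPM. Ifngr1 fell by 1.60 ± 0.07, Il6ra by 2.58 ± 0.33 and the growth factor receptor Csf1r by 0.72 ± 0.12.

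In the sensing pathway itself, 17 of 24 genes rose and 4 fell (median 1.14). The pattern differed by receptor. Tlr4 read 38.5, 61.9 and 57.7 CPM in vehicle and 35.1, 41.8 and 37.7 CPM after stimulation. Vehicle replicate 1 lay inside the stimulated range, and the fall was 0.47 ± 0.14 with it (adjusted p = 0.00726) and 0.65 ± 0.08 without it (adjusted p = 1.72e-08). Its coreceptor Cd14 rose from 569, 439 and 400.0 to 1497, 1431 and 1552 CPM (1.67 ± 0.11). Tlr2, the lipopeptide receptor, rose by 4.61 ± 0.09, the double-stranded RNA receptor Tlr3 by 4.22 ± 0.20 and the single-stranded RNA receptor Tlr7 by 2.52 ± 0.13, whereas Tlr13, a sensor of bacterial ribosomal RNA, fell by 1.68 ± 0.17. Among adaptors and kinases Traf1 rose by 4.43 ± 0.10 and Myd88 by 2.07 ± 0.08, while Irak1 and Irak4 fell by 1.12 ± 0.10 and 0.78 ± 0.08.

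NF-κB subunits and feedback genes rose in 22 of 28 cases and fell in 3 (median 1.92). The inhibitor Nfkbia, a direct NF-κB target that returns the factor to the cytoplasm, read 139.6, 121 and 146 and 980.1, 1027 and 1004 CPM (2.89 ± 0.08, adjusted p = 4.4e-14). Tnfaip3 (A20), which edits ubiquitin chains, read 18.4, 26.3 and 27.5 and 346, 344 and 338 CPM (3.83 ± 0.14). Nfkb2 rose by 3.74 ± 0.13, Nfkb1 by 2.56 ± 0.10, Rel by 2.30 ± 0.15, Relb by 2.01 ± 0.18 and Rela by only 0.39 ± 0.07. The cytokine signal inhibitors Cish and Socs3 rose by 6.92 ± 0.26 and 4.80 ± 0.14. Tsc22d3, the glucocorticoid-induced leucine zipper that holds back NF-κB, fell by 3.27 ± 0.10, from 252 to 26.0 CPM.

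All 74 tested interferon-stimulated genes rose (median log2 5.12), with changes from 1.09 ± 0.07 for Ifi207 to 9.43 ± 0.21 for Ifi208, and they rose in the same number without vehicle replicate 1. Ifit2, an RNA-binding antiviral protein, read 13.1, 12.4 and 13.4 and 6109, 5283 and 5682 CPM (8.78 ± 0.10, adjusted p = 1.08e-17), and the antiviral GTPase Mx1 3.35, 3.26 and 3.63 and 1179, 1214 and 1158 CPM (8.43 ± 0.12). Rsad2 (viperin) reached 10384 CPM. Upstream, Irf7, which amplifies interferon production, read 51.2, 39.5 and 41.7 and 4135, 4078 and 4023 CPM (6.53 ± 0.13). Stat2 rose by 4.47 ± 0.16, Irf1 by 4.24 ± 0.10 and Irf9 by 1.80 ± 0.07. Irf3, which is switched on by phosphorylation rather than by its amount, was not called (0.06 ± 0.09). The RNA sensors Ddx58 and Ifih1 rose by 5.20 ± 0.11 and 5.62 ± 0.12, and 19 of 23 genes of interferon production and signalling rose with 0 falls (with library totals 14 rose and 3 fell).

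Antigen presentation split by class. All 21 genes of MHC class I and the immunoproteasome rose (median 2.56), led by H2-Q6 (5.43 ± 0.11), H2-Q7 (5.15 ± 0.13), the peptide transporter Tap1 (5.04 ± 0.12) and the class I transactivator Nlrc5 (4.27 ± 0.13). In the class II and costimulation list 9 of 18 rose and 3 fell (median 0.41), against 33.7% and 35.6% of all genes. With library totals 6 rose and 8 fell. The largest rises were in costimulation: Cd40 by 7.54 ± 0.12, Cd274 (PD-L1) by 5.39 ± 0.12, Cd86 by 4.10 ± 0.09 and Icosl by 3.88 ± 0.15. The class II transactivator Ciita (-0.15 ± 0.19), H2-Aa (-0.14 ± 0.14) and H2-Eb1 (-0.20 ± 0.12) were not called, and the peptide loader H2-DMa fell by 1.60 ± 0.14. Havcr2 (TIM-3) fell by 4.94 ± 0.22.

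**Figure D2:**
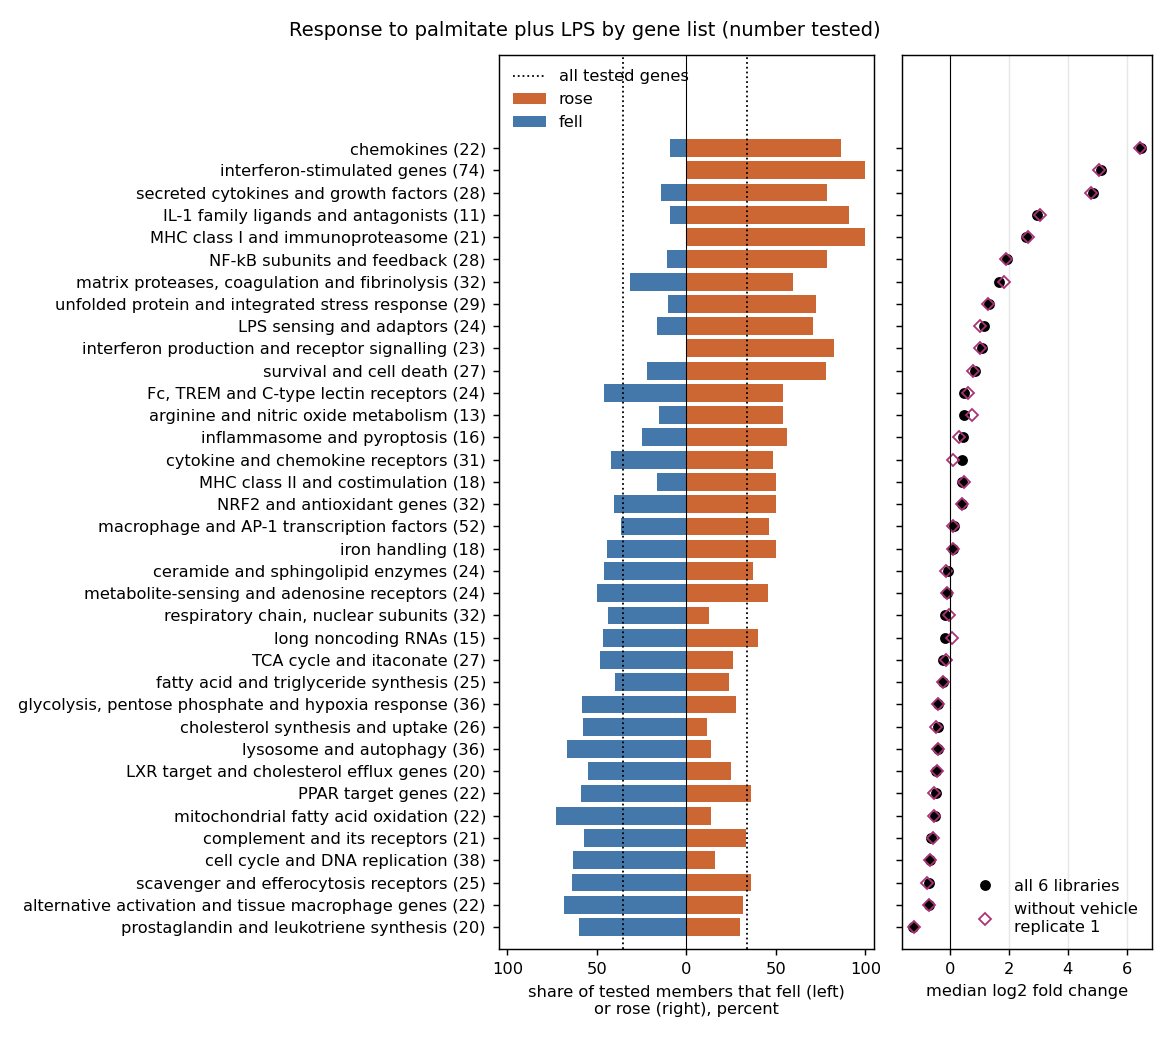
Gene lists ordered by the median log2 change of their tested members (number in brackets). The left panel gives the percent of members that rose (orange) or fell (blue), with dotted lines at the 33.7% and 35.6% of all tested genes. The right panel gives the median with all libraries (black) and without vehicle replicate 1 (open diamonds), from 6.48 for chemokines to -1.25 for prostaglandin and leukotriene synthesis.

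Promoters of 5 induced genes are printed to show matches to 2 short sequence types: the ISRE, the site of the interferon-activated factors, and the NF-κB motif. Each run is the 250 bases before a RefSeq start (GRCm38.p6), 5′ to 3′ on the gene's strand. For a gene with several starts, the start with the most matches was printed, so its matches were favoured by the choice. Capitals mark matches to the ISRE type (GAAA, any 2 bases, GAAA) or to the NF-κB motif (GGGRNWYYCC), searched on both strands. In the motif R is A or G, N any base, W A or T, and Y C or T. Pairs of GAAA at another spacing, as in Ifnb1, are not marked. Isg15 (chr4:156200819-156201068, minus strand) holds 3 overlapping ISRE-type matches. Cxcl10 (chr5:92348890-92349139, minus) holds 1 ISRE-type and 2 NF-κB matches, Cxcl2 (chr5:90903649-90903898, plus) 2 overlapping NF-κB matches, Nfkbia (chr12:55492648-55492897, minus) 1, and Ifnb1 (chr4:88522795-88523044, minus) 1.
Isg15: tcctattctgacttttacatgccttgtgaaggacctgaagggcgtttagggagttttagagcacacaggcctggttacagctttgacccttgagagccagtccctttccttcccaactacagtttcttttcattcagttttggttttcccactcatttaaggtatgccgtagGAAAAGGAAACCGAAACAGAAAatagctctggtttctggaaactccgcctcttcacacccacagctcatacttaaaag
Cxcl10: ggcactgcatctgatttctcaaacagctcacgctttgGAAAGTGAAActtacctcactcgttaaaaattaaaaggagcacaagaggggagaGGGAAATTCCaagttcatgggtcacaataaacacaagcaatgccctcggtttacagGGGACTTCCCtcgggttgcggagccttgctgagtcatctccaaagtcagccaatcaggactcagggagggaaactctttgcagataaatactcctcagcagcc
Cxcl2: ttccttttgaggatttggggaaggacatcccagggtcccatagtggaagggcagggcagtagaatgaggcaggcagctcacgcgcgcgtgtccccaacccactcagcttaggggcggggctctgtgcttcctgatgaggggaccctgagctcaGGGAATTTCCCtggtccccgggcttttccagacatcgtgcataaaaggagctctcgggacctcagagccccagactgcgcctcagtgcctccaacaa
Nfkbia: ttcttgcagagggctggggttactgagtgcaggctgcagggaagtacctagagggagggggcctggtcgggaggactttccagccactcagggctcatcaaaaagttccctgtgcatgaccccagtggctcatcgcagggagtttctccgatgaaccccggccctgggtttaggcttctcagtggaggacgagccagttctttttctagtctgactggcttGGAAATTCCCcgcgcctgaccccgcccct
Ifnb1: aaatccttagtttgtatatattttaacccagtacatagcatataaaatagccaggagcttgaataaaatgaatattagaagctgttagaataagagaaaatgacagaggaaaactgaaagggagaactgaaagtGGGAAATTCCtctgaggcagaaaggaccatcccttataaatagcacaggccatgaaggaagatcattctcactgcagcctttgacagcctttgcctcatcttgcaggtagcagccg

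These genes all rose: Isg15, a ubiquitin-like modifier, by 7.95 ± 0.14, Cxcl2, a neutrophil attractant, by 7.55 ± 0.14, and the other 3 as given above. RefSeq promoters were found for 9702 of the 12914 tested genes, 12376 in all because some genes have several starts. The ISRE-type sequence was in 2.87% of these promoters, in 14.2% of the 464 of genes that rose at least 8-fold, in 1.73% of those of genes not called and in 3.26% of the 307 of genes that fell at least 8-fold. The NF-κB motif was in 4.58% of all, 11.6% of those that rose at least 8-fold, 4.00% of those not called and 2.93% of those that fell at least 8-fold. By list, the ISRE type was in 43.7% of promoters of interferon-stimulated genes and the NF-κB motif in 4.23%. For NF-κB subunits and feedback genes the shares were 3.57% and 35.7%, for chemokines (14 promoters) 14.3% and 35.7%, for secreted cytokines 16% each, and for MHC class I and the immunoproteasome 15.8% and 47.4%. In the 150 bases before the start the chemokine shares were 0% and 35.7%. The 2 motifs overlapped each other in 2 promoters. A match describes the letters and not binding, and genes with several starts count more than once.

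**Figure D3:**
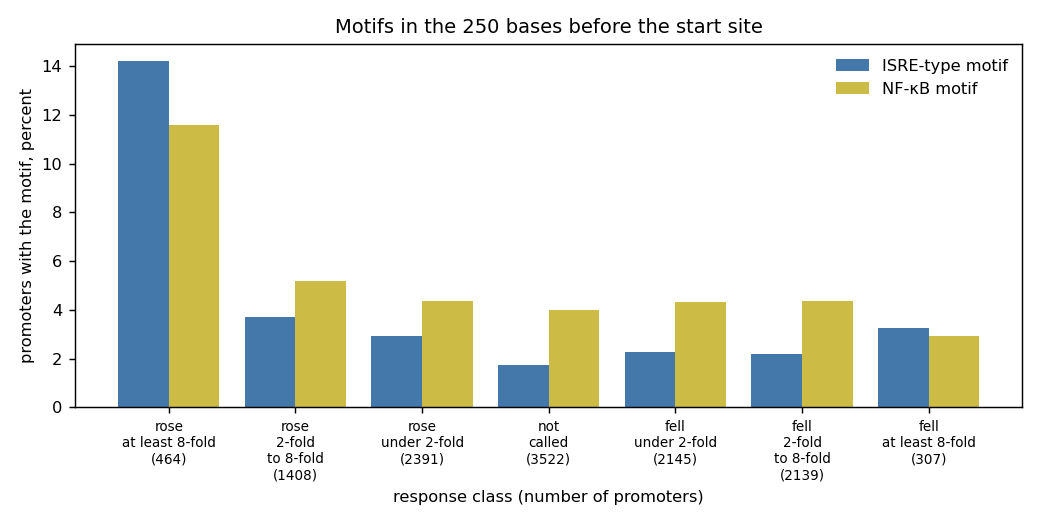
Percent of RefSeq promoters with an ISRE-type (blue) or NF-κB (yellow) match in the 250 bases before the start, by response class (number of promoters in brackets). Both bars are highest for genes that rose at least 8-fold, at 14.2% and 11.6%.

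Of 22 tested PPAR target genes 13 fell and 8 rose (median -0.49), against 35.6% and 33.7% of all genes. The fatty acid transporter Cd36 read 1061, 1285 and 1264 CPM in vehicle and 543, 544 and 595 CPM after stimulation, a fall of 1.10 ± 0.08 (adjusted p = 7.27e-09). The fatty acid binding protein Fabp4 read 383, 242 and 239 and 126, 157 and 134 CPM. Vehicle replicate 1 was its highest library, and the fall was 1.05 ± 0.14 with it and 0.79 ± 0.07 without it. Plin2, which coats lipid droplets, went the other way, from 1697, 1384 and 1359 to 2460.4, 2502 and 2350.1 CPM (0.72 ± 0.09, adjusted p = 3.81e-06). Angptl4 encodes a secreted inhibitor of lipoprotein lipase that fatty acids induce through PPARs. It read 1.52, 1.27 and 0.948 and 22.7, 16.1 and 18.6 CPM (3.95 ± 0.18). Hilpda, another droplet protein, rose by 1.13 ± 0.12, Fabp3 by 5.29 ± 0.14 and the carnitine transferase Cpt1a by 1.03 ± 0.12. Lpl, the lipase Angptl4 acts on, fell by 0.87 ± 0.08.

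Genes of LXR targets and cholesterol efflux fell in 11 of 20 cases and rose in 5 (median -0.48), against 35.6% and 33.7% of all genes. With TMM scaling the exporters parted: Abca1 rose from 14.5, 17.3 and 17.0 to 22.1, 22.9 and 21.9 CPM (0.45 ± 0.10, adjusted p = 0.000856) and Abcg1 fell from 619, 524 and 440.2 to 412, 318 and 366 CPM (by 0.53 ± 0.12, adjusted p = 0.000964). The rise of Abca1 is little larger than the shift of -0.37 over all genes with library totals, so it depends on the scaling. Ch25h, the interferon-inducible enzyme that makes 25-hydroxycholesterol, rose by 6.76 ± 0.23. Cyp27a1, another oxysterol enzyme, fell by 2.10 ± 0.13. The cholesterol esterifying Soat1 and the ester hydrolase Nceh1 fell together, by 1.85 ± 0.10 and 1.96 ± 0.07. In the synthesis pathway 15 of 26 genes fell, 3 rose and 8 were not called (median -0.42). Dhcr7, a final step, fell most, by 3.04 ± 0.11, with Mvk down by 1.35 ± 0.11 and Sqle by 0.74 ± 0.08. Insig1, which holds back sterol synthesis, rose by 0.61 ± 0.12.

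In fatty acid and triglyceride synthesis 10 of 25 genes fell and 6 rose (median -0.24), near the 35.6% of all genes that fell. The phosphatidate phosphatase Lpin1 fell by 3.77 ± 0.16 and the desaturases Scd2 and Fads1 by 2.06 ± 0.21 and 1.83 ± 0.14. The acyl-CoA synthetase Acsl1, which traps long-chain fatty acids such as palmitate inside the cell, rose by 2.84 ± 0.13, and Acsl5 by 1.08 ± 0.07. Mitochondrial fatty acid oxidation genes fell in 16 of 22 cases and rose in 3 (median -0.51): Hadh fell by 2.68 ± 0.11, Crat by 2.02 ± 0.09 and Acaa2 by 1.98 ± 0.12, while Acadl rose by 1.08 ± 0.07. Ceramide and sphingolipid enzymes split 9 up and 11 down of 24, against 33.7% and 35.6% of all genes. The rate-limiting subunit Sptlc2, which condenses palmitoyl-CoA with serine, rose by 1.64 ± 0.07 while Sptlc1 was not called (-0.06 ± 0.07). The ceramide synthases parted: Cers6 rose by 2.79 ± 0.08, and Cers5 and Cers4 fell by 2.44 ± 0.09 and 1.32 ± 0.16. Ugcg, which adds glucose to ceramide, rose by 2.08 ± 0.11, and the sphingomyelinase Smpd3 fell from 2.40 to 0.130 CPM.

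In the TCA cycle list 13 of 27 fell and 7 rose (median -0.23), against 35.6% falls and 33.7% rises over all genes. Idh1 fell by 3.74 ± 0.09, from 350.1 to 26.1 CPM, with Idh2 down by 1.72 ± 0.09. Acod1, which makes itaconate, read 12.3, 14.1 and 12.7 and 2732, 2502 and 2553 CPM (7.64 ± 0.11, adjusted p = 2.5e-17). Glycolysis, pentose phosphate and hypoxia genes fell in 21 of 36 cases and rose in 10 (median -0.42). Among the rises were the glucose transporter Slc2a1 by 1.19 ± 0.08, Hk2 by 1.79 ± 0.09, Hk3 by 1.31 ± 0.07, Pfkp by 1.15 ± 0.07 and the hypoxia factor Hif1a by 1.49 ± 0.10. Among the falls were the enzymes Tpi1 by 1.69 ± 0.13, Pkm by 0.71 ± 0.08, Eno1 by 0.69 ± 0.09 and Ldha by 0.39 ± 0.11. Of 32 nuclear genes of the respiratory chain 4 rose and 14 fell (median -0.19; with library totals 2 rose and 27 fell, median -0.54). Without vehicle replicate 1, 8 rose and 12 fell (median -0.04).

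In arginine metabolism the nitric oxide synthase rose and arginase 1 fell. The synthase Nos2 read 0.891, 0.796 and 0.990 CPM in vehicle and 485, 443 and 484 CPM after stimulation, a log2 change of 9.04 ± 0.14 (adjusted p = 3.69e-17), and Arg1, which competes for arginine, read 9.70, 7.92 and 8.91 and 0.941, 0.650 and 1.16 CPM, a fall of 3.26 ± 0.19. The arginine importer Slc7a2 rose by 6.81 ± 0.12, the cofactor enzyme Gch1 by 3.43 ± 0.18, Ass1 by 2.78 ± 0.17 and the mitochondrial arginase Arg2 by 4.59 ± 0.12. In all 7 of 13 rose and 2 fell, against 33.7% and 35.6% of all genes. Without vehicle replicate 1, 10 rose and 3 fell.

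The eicosanoid list had a median of -1.25, with 12 of 20 genes down and 6 up. Among the rises, Ptgs2 (cyclooxygenase 2) read 3.04, 2.43 and 2.31 and 1189.9, 1162 and 1115 CPM (8.81 ± 0.14, adjusted p = 4.07e-17), Ptges rose by 5.35 ± 0.11 and the phospholipase Pla2g4a by 2.55 ± 0.10. The prostaglandin D2 synthase Hpgds fell by 2.70 ± 0.10 and the constitutive Ptgs1 by 2.36 ± 0.09. Of the leukotriene genes, Alox5ap fell by 2.83 ± 0.14, Alox5 by 2.74 ± 0.37, Ltc4s by 2.89 ± 0.47 and Lta4h by 1.21 ± 0.08.

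Genes of resting and alternatively activated macrophages fell in 15 of 22 cases and rose in 7 (median -0.73). The lectin Clec10a fell by 4.02 ± 0.36, the scavenger receptor Stab1 by 2.43 ± 0.12, Trem2 by 1.67 ± 0.11 and the mannose receptor Mrc1, whose vehicle replicate 1 overlapped the stimulated libraries, by 0.52 ± 0.14, while Adgre1 (F4/80) rose by 1.23 ± 0.09. Scavenger and efferocytosis receptors fell in 16 of 25 cases and rose in 9 (median -0.71). Of the TAM kinases that recognise dying cells, Axl read 5.71, 7.52 and 8.29 and 257, 211 and 225 CPM (5.0 ± 0.13) and Mertk 31.3, 51.3 and 49.8 and 149, 116 and 119 CPM (1.53 ± 0.15), while their ligand gene Gas6 fell by 2.21 ± 0.25. The lectin-like scavenger receptor Olr1 rose by 4.69 ± 0.15 and Msr1 by 1.42 ± 0.10, against falls of 1.87 ± 0.09 for Scarb1 and 1.37 ± 0.13 for Lrp1.

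In the complement list 12 of 21 fell and 7 rose (median -0.66). Cfb, a protease of the alternative pathway, rose by 6.28 ± 0.13 and the central component C3 by 2.04 ± 0.21. The receptors for complement fragments fell, C5ar2 by 4.51 ± 0.18, C5ar1 by 2.18 ± 0.08 and C3ar1 by 0.96 ± 0.08. The 3 chains of C1q fell, C1qa by 0.89 ± 0.08. Fc, TREM and C-type lectin receptors divided 13 up and 11 down of 24, against 33.7% and 35.6% of all genes. Clec4e (Mincle) rose by 6.57 ± 0.11 to 5909 CPM and Tarm1 by 8.05 ± 0.16, while the β-glucan receptor Clec7a fell by 1.73 ± 0.09, Clec4a2 by 3.49 ± 0.18 and the adaptor Tyrobp by 1.41 ± 0.15.

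Transcription factors divided as well, 24 of 52 up and 19 down (with library totals, 19 up and 24 down), against 33.7% and 35.6% of all genes. Among the falls were Maf by 1.65 ± 0.14, Cebpa by 1.85 ± 0.18 and Gata6, which marks large peritoneal macrophages, by 1.72 ± 0.24 from 3.04 CPM. The repressors Bcl6 and Id3 fell by 3.43 ± 0.23 and 3.24 ± 0.18. Batf2 rose by 5.11 ± 0.13, Ets2 by 3.21 ± 0.17, Batf by 2.50 ± 0.13 and Atf3 by 1.02 ± 0.07, whereas Spi1 (PU.1) was not called (0.27 ± 0.27).

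The unfolded protein and integrated stress response list had 21 of 29 up and 3 down (median 1.33), with Chac1 up by 3.75 ± 0.19, Ppp1r15a by 3.07 ± 0.13, Ddit3 (CHOP) by 1.95 ± 0.17 and the chaperone Hspa5 by 1.86 ± 0.10. NRF2 and antioxidant genes divided 16 up and 13 down of 32 (median 0.40), against 33.7% and 35.6% of all genes. With library totals 14 rose and 14 fell. The cystine importer Slc7a11 rose by 5.11 ± 0.09, Sod2 by 3.73 ± 0.10 and Prdx5 by 2.25 ± 0.14, and Gpx1 and Mt1 fell by 2.31 ± 0.11 and 2.46 ± 0.17. Iron genes included a rise of the ferritin heavy chain Fth1 of 1.06 ± 0.13, to 63167 CPM. The exporter Slc40a1 fell by 1.70 ± 0.18 and the ferrireductase Steap3 by 3.56 ± 0.09. Lysosome and autophagy genes fell in 24 of 36 cases and rose in 5 (median -0.43). Among them were the abundant proteases Ctsd (down by 1.40 ± 0.09) and Ctsb (down by 0.68 ± 0.08), and the acid lipase Lipa, which frees fatty acids and cholesterol (down by 1.67 ± 0.07). Sqstm1 (p62) rose by 2.59 ± 0.10.

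Cell cycle genes fell in 24 of 38 cases and rose in 6 (median -0.68). The factor E2f2 fell from 3.32 to 0.0733 CPM, E2f1 by 1.84 ± 0.09 and Aurkb by 1.63 ± 0.24, and the inhibitor Cdkn1a (p21) rose by 3.22 ± 0.08. Mki67, a proliferation marker, was among the 6 that rose, from 1.89, 2.07 and 1.90 to 25.7, 27.6 and 24.5 CPM (3.72 ± 0.12), with the cyclins Ccnd2 (5.78 ± 0.25) and Ccne1 (3.75 ± 0.14). Top2a, another proliferation marker, fell by 1.09 ± 0.16. In the survival and death list 21 of 27 rose and 6 fell (median 0.85). The caspase-8 inhibitor Cflar rose by 4.07 ± 0.11 and the necroptosis effector Mlkl by 4.93 ± 0.09, and the mitochondrial initiators Bmf and Bbc3 fell by 2.54 ± 0.32 and 0.88 ± 0.23.

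Genes of matrix and clotting rose in 19 of 32 cases and fell in 10 (median 1.66). The long pentraxin Ptx3 rose from 0.0838 to 20.8 CPM, the protease inhibitor Serpinb2 by 5.50 ± 0.17, coagulation factor F10 by 2.98 ± 0.10 and tissue factor F3 by 3.03 ± 0.14, while thrombomodulin, Thbd, fell by 5.05 ± 0.19. Receptors for metabolites divided 11 up and 12 down of 24, against 33.7% and 35.6% of all genes. Hcar2, the niacin and ketone body receptor, rose by 6.79 ± 0.13, the adenosine receptor Adora2a by 5.02 ± 0.15 and the medium-chain fatty acid receptor Gpr84 by 4.82 ± 0.15. The oxysterol receptor Gpr183 fell by 5.31 ± 0.22, the cannabinoid receptor Cnr2 by 4.71 ± 0.22 and the proton sensor Gpr65 by 3.22 ± 0.11.

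In a list of 15 tested long noncoding RNAs, 6 rose and 7 fell, against 33.7% and 35.6% of all genes. Of all tested genes annotated as lincRNA, 37 rose, 102 fell and 78 were not called. Direction went with level over all tested genes: at 1 to 10 CPM in the higher treatment 923 rose and 1714 fell. Over 1000 CPM, 125 rose and 58 fell. The part of level in the lincRNA count was not tested. Mir155hg, the host transcript of the inflammatory microRNA miR-155, rose by 8.06 ± 0.15, from 0.720 to 193 CPM. The mature microRNA was not measured. Its main strand is shown with the seed, bases 2 to 8, in capitals (RefSeq, GRCm38.p6, chr16:84714143-84714165, plus strand).
mmu-miR-155-5p: uUAAUGCUaauugugauaggggu

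Malat1 and Neat1, abundant nuclear RNAs, fell by 0.70 ± 0.11 and 0.98 ± 0.10. Ptgs2os2 and Ptgs2os, transcripts beside Ptgs2, rose to 15.5 and 2.65 CPM. The counting strand is not given in the sources used here, so their reads cannot be told apart from those of Ptgs2. Near-identical genes such as Ifit3 and Ifit3b, H2-Q6 and H2-Q7, Bcl2a1a and Bcl2a1d, and Gapdh with its pseudogenes (11.6 CPM) are uncertain in the same way, since reads that fit several copies may have been dropped or split.

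Over all genes whose treatments did not overlap and that reached 10 CPM in either treatment, the largest rises were Ifi208 (9.43 ± 0.21), Il12b, Nos2, Il6, Ptgs2, Ifit2 and Il27, given above, then Ifi206 (8.67 ± 0.13), Trim30c (8.61 ± 0.14), Ifi213 (8.59 ± 0.16), Il12a and Ms4a4c (8.49 ± 0.17). The largest fall was Cd28, known best as a T cell costimulator, from 56.9, 50.5 and 50.4 to 0.765, 0.705 and 0.893 CPM (by 6.05 ± 0.13, adjusted p = 6.54e-16). Summed T and NK cell markers read 1.16 to 1.39 CPM in the same vehicle libraries. Next came the sialyltransferase St6gal1 (by 5.81 ± 0.21), the Ras activator Rasgrp3 (by 5.43 ± 0.27), Gpr183, Thbd, Galnt9 (by 4.95 ± 0.16), Havcr2, Cnr2, Tmem273 (by 4.68 ± 0.23), the G protein regulator Rgs18 (by 4.66 ± 0.15), Clec2i (by 4.64 ± 0.18) and Arhgap19 (by 4.63 ± 0.23).

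The control genotype, whose 6 libraries are separate from these, had 4132 genes that rose (32.0%) and 4480 that fell (34.7%). Across the 7431 genes with at least 10 CPM in the higher labelled knockout group, the log2 changes of the 2 genotypes had a Pearson correlation of 0.964 as a description, and 6382 had the same sign. The same direction was called in both for 7163 genes, 3488 up and 3675 down. The difference in response, labelled knockout minus control, was higher for 607 genes (4.70%) and lower for 432 (3.35%). Without vehicle replicate 1 it was higher for 1017 of 13148 genes (7.74%) and lower for 735 (5.59%), and 1019 of the 1039 calls were kept in the same direction. These counts rest on single libraries. They were 1023 and 939 without vehicle replicate 3 of the labelled knockout, and 276 and 152 without control vehicle replicate 2. Leaving out control vehicle replicate 1, control stimulated replicate 2 or 3, or any of the 3 labelled knockout stimulated libraries gave 281 to 383 higher and 162 to 240 lower.

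**Figure D4:**
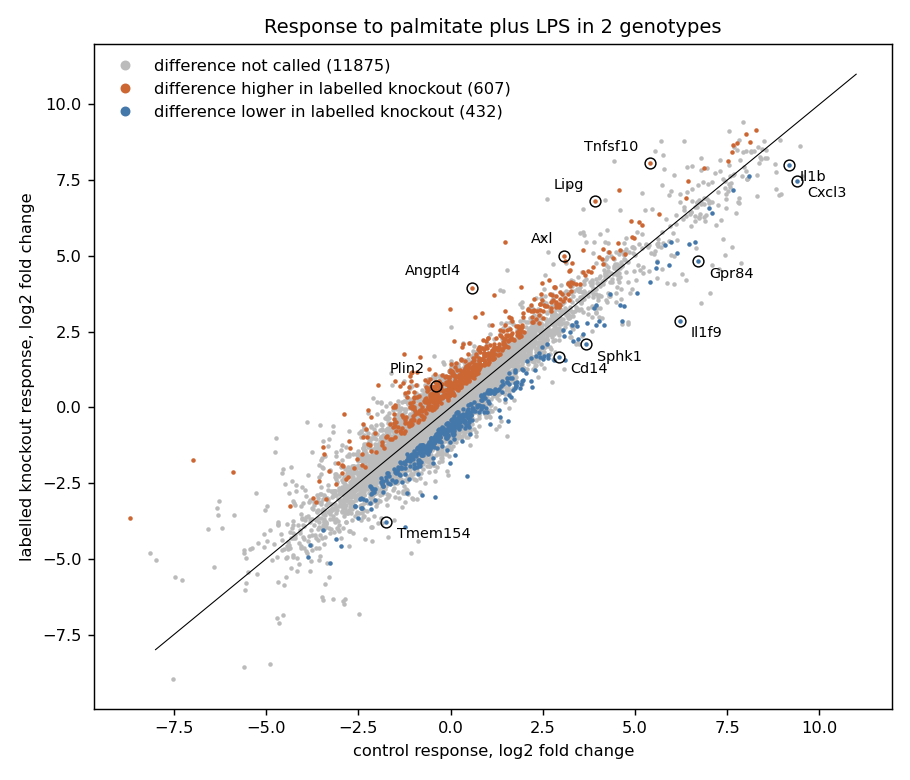
Log2 change with palmitate plus LPS in the control (x) and labelled knockout (y) genotype for 12914 genes. Orange and blue points are the 607 and 432 genes whose difference in response was called, rings mark labelled genes, and the line marks equal change; Angptl4 lies farthest above the line and Il1f9 farthest below it among the labelled genes.

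In the PPAR target list the difference was higher for 4 of 22 genes and lower for 2. In the cholesterol synthesis and uptake list it was higher for 0 and lower for 8 of 26, among them Dhcr7 (-0.59 ± 0.14) and Mvk (-0.59 ± 0.16), against 4.70% and 3.35% of all genes. Such a share was not particular to this list: among Fc, TREM and C-type lectin receptors the difference was higher for 2 and lower for 10 of 24. Angptl4 read 7.66, 8.80 and 9.04 CPM in control vehicle and 12.5, 13.7 and 11.9 CPM in control stimulated libraries, so its response was 0.58 ± 0.14 there against 3.95 ± 0.18 in the labelled knockout (difference 3.37 ± 0.23, adjusted p = 1.31e-06). In vehicle the 2 genotypes did not overlap, with the labelled knockout lower. Plin2 fell in the controls, from 2856, 2925 and 3263 to 2138, 2341 and 2342 CPM, and rose in the labelled knockout (difference 1.13 ± 0.13, adjusted p = 0.000149). Cpt1a differed by 1.15 ± 0.17 and the endothelial lipase Lipg by 2.90 ± 0.53. Cd36 read 2224, 2229 and 2274 CPM in control vehicle and 1087, 1009.5 and 1073 CPM in control stimulated libraries, above the labelled knockout under both treatments, with a difference in response of -0.02 ± 0.12 (adjusted p = 0.941).

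Of the cytokines, Il1b rose less in the labelled knockout. It read 7.58, 6.89 and 7.02 CPM in control vehicle and 3568, 4709.9 and 4215 CPM in control stimulated libraries, all 3 above the labelled knockout range, a response of 9.18 ± 0.17 (difference -1.17 ± 0.18, adjusted p = 0.00175; -1.04 ± 0.18 without vehicle replicate 1, adjusted p = 0.000817). Il1f9, another IL-1 family member, differed by -3.36 ± 0.36, Cxcl3 by -1.91 ± 0.19 and Cd14 by -1.28 ± 0.16. For Il1a the difference was -0.20 ± 0.13 (adjusted p = 0.323), for Tnf -0.08 ± 0.11 (adjusted p = 0.663), for Il6 -0.10 ± 0.22 (adjusted p = 0.8) and for Nlrp3 0.56 ± 0.26 (adjusted p = 0.185). Il27, Il12b and Nos2 rose more in the labelled knockout, by 0.96 ± 0.15, 0.87 ± 0.21 and 1.01 ± 0.23.

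In the controls 73 of the 74 interferon-stimulated genes rose, and the difference was higher for 22 of them and lower for 1, Rtp4 (-0.53 ± 0.15), against 4.70% and 3.35% of all genes. Ifit2 differed by 0.65 ± 0.11 (adjusted p = 0.00384). The death ligand Tnfsf10 (TRAIL), an interferon-inducible gene of the cytokine list, differed by 2.66 ± 0.51 and the kinase Axl by 1.93 ± 0.16. Ifnb1 had 0, 1 and 0 counts in control vehicle libraries and 7, 8 and 9 in control stimulated ones, below the 23 to 40 of the labelled knockout. Antioxidant genes went the other way, with the difference lower for 13 of 32 and higher for 0: Slc7a11 by -1.03 ± 0.11, Gclm by -0.92 ± 0.17 and Hmox1 by -0.53 ± 0.14. In labelled knockout vehicle replicate 1 the antioxidant list read higher than in replicates 2 and 3 (median log2 difference 0.34). Over all genes 1019 of the 1039 difference calls were kept without that library. Its part in the count for the antioxidant list was not tested.

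Vehicle replicate 1 was compared with its own group. Of 6747 genes with at least 10 CPM in that group, 366 were at least 1.5-fold higher and 576 at least 1.5-fold lower in it than in the mean of replicates 2 and 3, against 4 and 18 between replicates 2 and 3. Ribosomal protein genes summed to 5927 CPM in it, against 3948 and 3880 in the others and 4604 to 4828 in the stimulated libraries. Mitochondrially encoded genes summed to 8186 CPM, against 6063 and 4853, and 3759 to 4075 after stimulation. Its part in any single call beyond the refits was not tested. Ribosomal protein genes went from 4 up and 6 down of 30 to 10 up and 3 down without it. Cstb, a cathepsin inhibitor, read 1846, 1137 and 1076 and 1391, 1313 and 1322 CPM and was called only without it (0.28 ± 0.07, adjusted p = 0.00145). Cd63 (fall of 0.30 ± 0.13, adjusted p = 0.0473) and Eef1a1 (fall of 0.21 ± 0.08, adjusted p = 0.0324) were called only with it. In the other pathway lists, apart from those given above, no count of rises or falls moved by more than 2. Some did not move: the IL-1 family, cytokines, chemokines, NF-κB, interferon-stimulated and class I lists had the same numbers up and down with and without it.

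**Figure D5:**
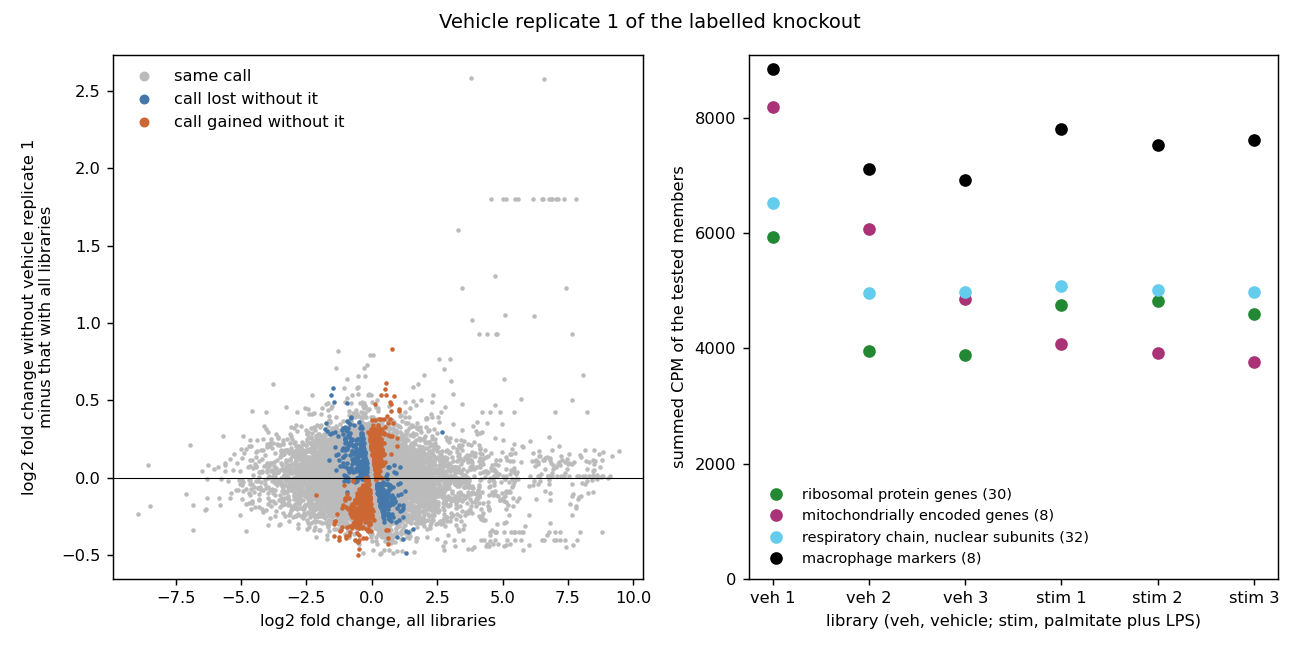
Left, change in each gene's log2 response when vehicle replicate 1 is left out, against the response with all libraries; grey points keep their call, blue points lose it and orange points gain it. Right, summed CPM of 4 gene lists in the 6 libraries, with vehicle replicate 1 highest in all 4. It read 5927 CPM for ribosomal protein and 8186 CPM for mitochondrially encoded genes. For nuclear respiratory chain genes it read 6526 CPM and for macrophage markers 8843 CPM. Most lost and gained calls have small responses.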

How the data were processed

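RNA libraries were made from total RNA with the Clontech SMARTer kit, per the labels' protocols. The authors deposited per-gene read counts, CPM and RPKM. Reads were demultiplexed with bcl2fastq 2.0, aligned with STAR 2.0.4b to GRCm38 and counted with featureCounts 1.45 of Subread, per the submitters' processing notes. The strand setting and annotation release were not stated in these sources. Only the deposited counts were tested; the deposited CPM and RPKM were not used, and CPM here were recomputed with TMM factors, and per kilobase with the deposited gene lengths where so stated.

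All 12 libraries were fitted with 1 mean per group in edgeR 4.0.16 (R 4.3.3; TMM scaling, filterByExpr, robust quasi-likelihood F-test, Benjamini-Hochberg adjustment, threshold 0.05). The contrasts were stimulated minus vehicle in the labelled knockout, the same in the controls, and their difference. Each was repeated with DESeq2 1.42.0 and other settings, and without each library in turn. Errors of log2 changes, called SE, are the size of the log2 change divided by the square root of the F value of that test. They rest on a spread shared by all fitted libraries and moderated across genes, and are not the spread of 3 libraries in a group.

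The gene lists and named genes were chosen with earlier results of these data known. The rule for named genes took 53 fixed genes, the 12 largest rises and 12 largest falls, up to 4 rises and 4 falls per list, and the genes whose difference in response was largest. Predicted genes, pseudogenes and antigen receptor segments were left out when the largest rises, falls and differences were ranked. Of 270 genes named, 61 lie outside this rule and were chosen after their values were seen, for their known roles. Some genes are not reported here. The replicate numbers are not said to pair the libraries. Deviations from group means correlated across genes at 0.0525, -0.0127 and 0.0566 for the same number. For different numbers the range was -0.0734 to 0.0231. Such small values cannot decide whether the numbers pair libraries.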

Additional observations from a re-analysis of the deposited data

Results flagged for a closer look

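The response differed between the labelled knockout and control macrophages for 30 listed genes, by the interaction term of the edgeR fit (adjusted p under 0.05). They came from the 53 fixed genes or from the largest such differences. The latter were picked from genes already past this threshold, so their passing was set by the choice. Over all tested genes the difference was higher for 4.70% and lower for 3.35%. Values are the labelled knockout response minus the control response on the log2 scale, with SE, and the 2 responses share no libraries.

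The difference was higher in the labelled knockout for Angptl4 (3.37 ± 0.23), Lipg (2.90 ± 0.53), Tnfsf10 (2.66 ± 0.51), Chtf8 (2.48 ± 0.50), Axl (1.93 ± 0.16) and Adra1a (1.83 ± 0.16). It was also higher, by less, for Sumf1 (1.81 ± 0.48), St3gal5 (1.75 ± 0.26), Cpt1a (1.15 ± 0.17), Mertk (1.13 ± 0.21), Plin2 (1.13 ± 0.13), Arg1 (1.09 ± 0.31), Nos2 (1.01 ± 0.23), Il27 (0.96 ± 0.15), Il12b (0.87 ± 0.21), Tnfaip3 (0.85 ± 0.18), Ifit2 (0.65 ± 0.11) and Il1rn (0.46 ± 0.12). Of these, Plin2, Chtf8 and Sumf1 had a positive response in the labelled knockout and a negative one in the controls (-0.41, -0.82 and -1.12). For Cpt1a the control response was small (-0.12), and for Adra1a and Arg1 both responses were negative.

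The difference was lower for Il1f9 (-3.36 ± 0.36), Tmem154 (-2.03 ± 0.12), Batf3 (-2.0 ± 0.20), Cxcl3 (-1.91 ± 0.19), Gpr84 (-1.89 ± 0.23) and Lox (-1.78 ± 0.35). It was also lower for Sphk1 (-1.61 ± 0.13), Prkag2 (-1.58 ± 0.39), Cd14 (-1.28 ± 0.16), Il1b (-1.17 ± 0.18), Hmox1 (-0.53 ± 0.14) and Acod1 (-0.46 ± 0.12). Batf3 had a negative response in the labelled knockout (-0.44) and a positive one in the controls (1.56). Tmem154 and Prkag2 fell in both.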

How the results depend on the processing

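The response counts of 4356 rises and 4600 falls changed least. Leaving out 1 library gave 4131 to 4599 rises and 4302 to 4763 falls, DESeq2 gave 4396 and 4384, and the 6 labelled knockout libraries alone 3959 and 4112. Library totals gave 2676 rises, and a test against a 2-fold change gave 1491 rises and 1622 falls. The difference between genotypes moved more. Against 607 higher and 432 lower genes, library totals gave 388 and 788, no filter on low counts 1087 and 788, and leaving out 1 library 276 to 1023 and 152 to 939. The cause was not tested. With the replicate number as a block, the response gave 4261 rises and 4463 falls and the difference 330 higher and 184 lower. A block within the 6 labelled knockout libraries, added after seeing the data, gave 3999 and 4072. Whether equal numbers pair libraries is not stated. Of the named genes, Irf3 became a fall with library totals (-0.30, adjusted p = 0.0115), and Cstb became a rise without vehicle replicate 1 (0.28), against -0.15 (not called) without replicate 3. Other named responses kept their direction in every alternative where they were called, and 27 gene-and-setting pairs lost their call. The flagged and fixed differences lost their call in 62 pairs and gained one in 29, with no change of direction among those called. Il1rn, Sumf1, Arg1, Acod1, Hmox1, Il12b, Prkag2 and Nos2 each lost it under at least 1 alternative. Motif shares moved by over 1.5 times in 17 of 26 comparisons with a window of 150 bases. The 3 libraries per group limit what can be called for genes with few counts.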
